A study of Homo sapiens with 12 samples.

Results

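The nuclear-encoded subunits of the respiratory chain were followed through cardiac differentiation of human embryonic stem cells. Members were the genes whose symbol in the deposited table starts with NDUF and a letter A, B, C, S or V and a digit, with UQCR, with COX and a digit from 4 to 8 and a letter, or with ATP5. Of 251 matching symbols, 160 were pseudogenes (symbols ending in P and digits) and were dropped, which left 91 members among the 61806 genes of the table. Of these, 83 are protein-coding, 2 are readthrough genes (ATP5MF-PTCD1 and NDUFC2-KCTD14) and 6 are noncoding neighbours of members. Of the protein-coding members, 36 were counted with complex I, 9 with complex III, 19 with complex IV and 19 with complex V. They follow the symbols, so genes whose products are not fixed subunits, such as ATP5IF1 and COX7A2L, are included. The rule used names only and no measured value.

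RNA-seq was carried out on 12 libraries from H1, a single wild-type (WT) human embryonic stem cell line, with 2 libraries in each of 6 groups. In all groups, cells were first induced to mesendoderm progenitors with the WNT activator CHIR99021 in DF medium, and insulin was added on the day after. NP-IWP2 cells stayed in the same wells (static culture) and received IWP2, an inhibitor of WNT secretion. P-DF cells were dissociated and replated (passaged) on Day 2 and then differentiated in DF medium without an inducer, and P-IWP2 cells had both the Day 2 passage and IWP2. Each treatment was sampled on Day 12 and Day 16. NP-IWP2 is therefore a control that carries a cardiac inducer, and P-DF differs from it in passaging and in IWP2. By the study's text, a ROCK inhibitor was added when cells were dissociated, which the labels do not name, so passaging here may include that exposure. Nothing in the labels says that the libraries of a group came from separate cultures, so the p-values measure only the spread between these libraries.

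The respiratory chain passes electrons from NADH through complex I and from succinate through complex II to coenzyme Q, then through complex III and cytochrome c to complex IV, which reduces oxygen. Complexes I, III and IV pump protons across the inner mitochondrial membrane, and complex V (ATP synthase) uses their return to make ATP. Most subunits are encoded in the nucleus and a small set in the mitochondrial genome, the heart is among the tissues richest in both, and in heart and skeletal muscle some subunits of complex IV are replaced by muscle isoforms.

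Counts per library summed to between 14885589 and 19176239. Levels are given as TMM-scaled FPKM, that is FPKM computed from the counts with TMM-scaled library sizes, so that levels and fold changes share a scale and genes can be compared per length. Of the 91 members, 81 passed the filter on low counts and were tested, 78 of them protein-coding. The protein-coding members that did not pass were ATP5MGL, COX4I2, COX7B2, COX8C and NDUFA4L2. Of the 6 noncoding neighbours, NDUFA6-DT, NDUFB2-AS1 and NDUFV2-AS1 were tested and were not called in any of the 10 comparisons, and neither readthrough gene passed. The strand setting of the counting is not given in the sources used here, so reads of the antisense genes and of their partners may be shared. Dropped pseudogenes held between 0.122% and 0.165% of the reads of members and pseudogenes together. UQCRHL is a near-identical copy of UQCRH and its reads are uncertain.

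One library, labelled P-IWP2 replicate 5 of Day 12 and called the divergent library here, stood apart and bears on every result. It was the lowest of the 12 libraries for 63 of the 78 members. All members together took 0.736% of its counts, against 0.924% to 1.12% in the other 5 Day 12 libraries. Its 16 cardiomyocyte markers summed to 3019 TMM-scaled FPKM (6349 to 9063 in the other 5), its 5 epicardial markers to 110 (0.211 to 43.0) and its 6 endothelial markers to 14.9 (152 to 223). The epicardial sum was 25.9 and 43.0 in NP-IWP2 and 0.211 to 0.258 in the other 3 passaged Day 12 libraries. Fibroblast markers summed to 810 in the divergent library, 898 and 939 in NP-IWP2 and 154 to 175 in those 3. Hepatic markers summed to 6.88, against 420 and 609 in NP-IWP2 and 5.65 to 8.01 in those 3. The endothelial sum did not stand for each marker. Against NP-IWP2 on Day 12, the median log2 fold change of the 6 was -6.79 in P-DF. In P-IWP2 that median was -2.19 with the divergent library and -6.93 without it. The part of this difference in cell makeup in the levels of the members was not tested. Because all groups share one estimate of the spread, its distance from its replicate widens the error of every comparison. The results are therefore given with all 12 libraries and without it.

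On Day 16, the respiratory chain subunits were higher in passaged than in static cells. All 4 passaged libraries lay above both NP-IWP2 libraries for 77 of the 78 tested protein-coding members, where 24.1% of the 19505 genes tested did so. On the deposited FPKM without TMM scaling, 72 members did so, where 12.0% of all genes lay higher and 41.8% lower without overlap. COX6B2, the testis isoform of a complex IV subunit, was the exception and lay below without overlap, as did 27.1% of all genes. The median difference between P-DF and NP-IWP2 was 0.61 on the log2 scale (1.53-fold), and that between P-IWP2 and NP-IWP2 was 0.77 (1.71-fold). The median over all genes was -0.02 and -0.03, respectively. In bulk RNA, fewer cells of a type and less RNA per cell cannot be told apart.

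**Figure D1:**
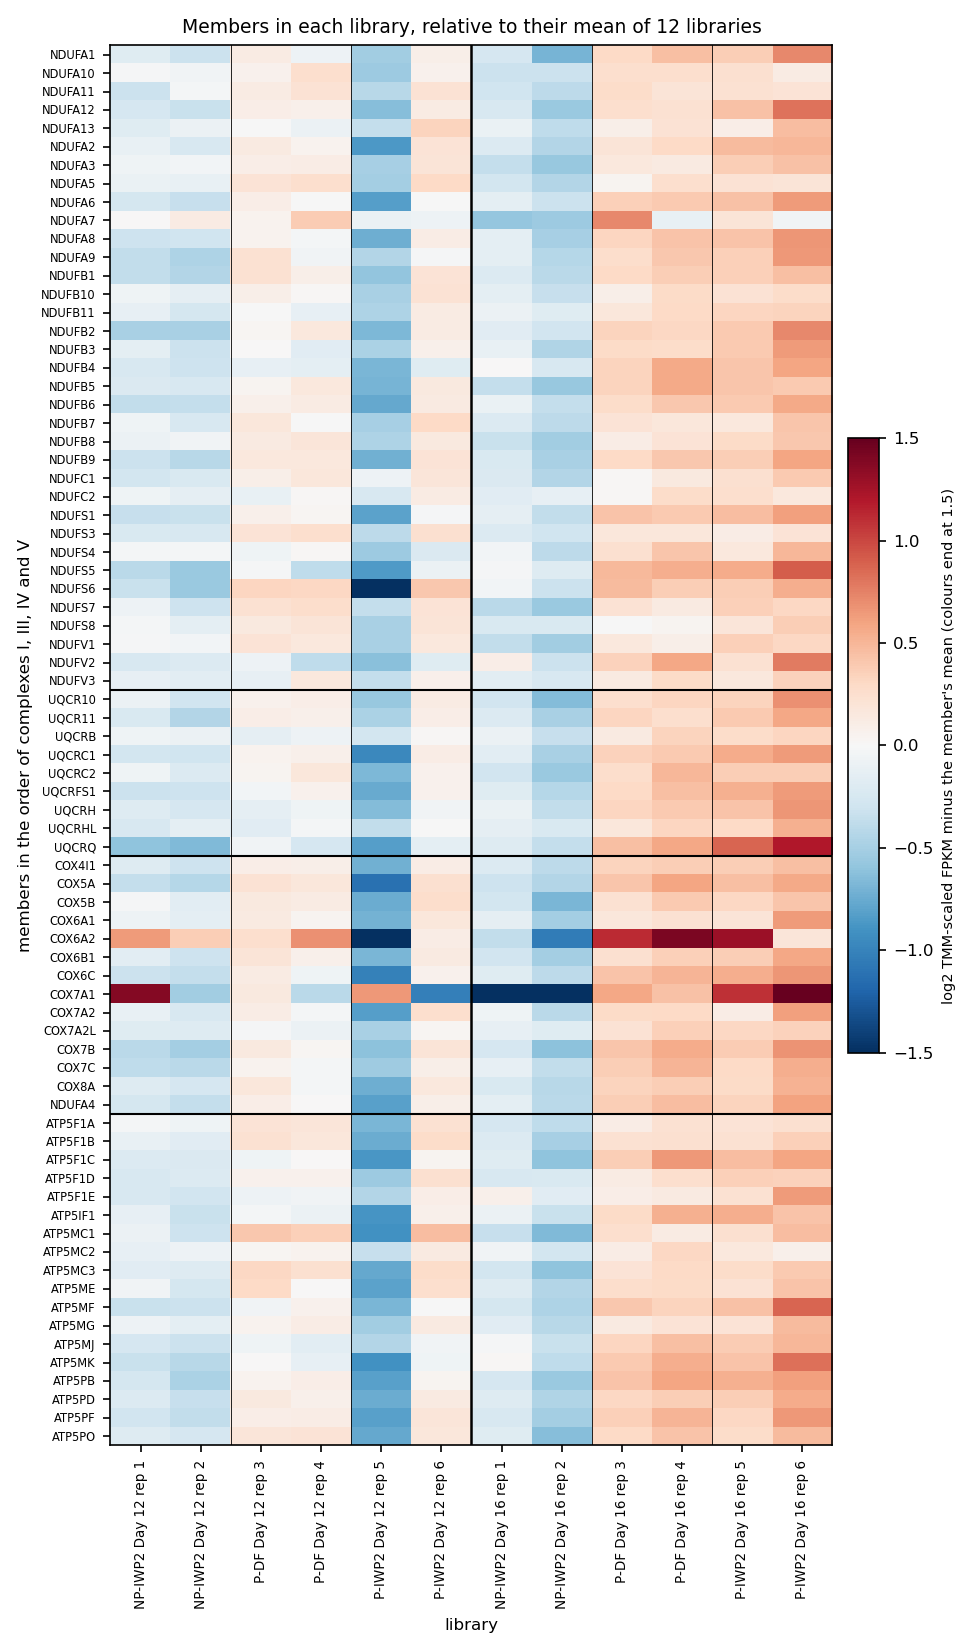
Heat map of tested protein-coding members, without COX6B2 and 1 member not reported here (rows, ordered by complex) in the 12 libraries (columns). Colour is log2 TMM-scaled FPKM minus the member's own mean, red above and blue below. The 4 passaged Day 16 libraries on the right are red almost throughout, and the divergent library is blue for most members.

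By edgeR's quasi-likelihood test with Benjamini-Hochberg adjustment over all genes, 15 of the 78 members rose and 1 fell in P-DF on Day 16, where 5.39% of all genes tested rose and 9.86% fell. In P-IWP2, 35 rose and 1 fell, where 7.15% of all genes rose and 9.95% fell. The 15 members that rose in P-DF were among the 35 of P-IWP2, and both comparisons share the NP-IWP2 libraries. Without the divergent library, 71 members rose in P-DF (14.4% of the 20518 genes then tested) and 75 in P-IWP2 (16.3%), COX6B2 fell in both (18.1% and 18.5% of all genes fell), and the medians were the same. The members that did not rise in that model were ATP5F1E, COX6B2, COX7A1, NDUFA13, NDUFA7, NDUFC2 and NDUFS8 in P-DF and ATP5MC2, COX6B2 and NDUFA7 in P-IWP2, so other members said below not to pass did so without the divergent library. Fewer members were called when any of the 10 libraries outside that group was left out, between 0 and 5 members that rose in P-DF and between 1 and 19 in P-IWP2 (0.699% to 4.05% and 0.954% to 4.71% of all genes rose). The medians then ranged from 0.50 to 0.73 and from 0.63 to 0.87, so the number of calls moved more than the median.

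The size of the difference also depended on scaling. Scaled by total counts, the median of all genes shifted to -0.25 in P-DF and -0.31 in P-IWP2, and the median of the members to 0.38 and 0.49. The members then stood 0.63 and 0.80 above the median of all genes. This distance is no check on the scaling, since a change of scaling shifts all genes nearly alike. With total counts 6 members rose in P-DF, where 2.86% of all genes rose and 14.7% fell, and 23 in P-IWP2, where 3.76% rose and 17.5% fell. As a share of all counts, which is again scaling by total counts, the 91 members took 0.832% and 0.764% in the static Day 16 libraries, 1.02% and 1.07% in P-DF, and 1.07% and 1.09% in P-IWP2.

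**Figure D2:**
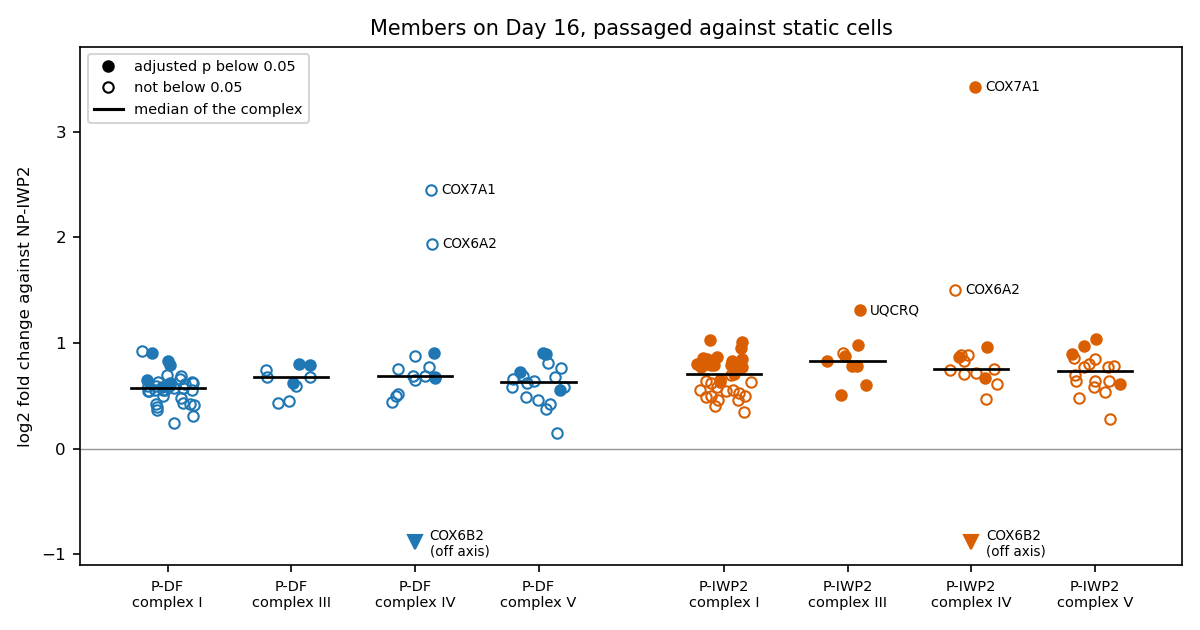
Log2 fold change of each tested protein-coding member against NP-IWP2 on Day 16 (vertical axis), by treatment and complex (horizontal axis). Filled points passed an adjusted p of 0.05, open points did not, and lines are medians of a complex. All points but COX6B2, drawn as a triangle at the lower edge because its fitted value of -8.93 lies off the axis, lie above 0.

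Markers of other cell types differed between the same groups. On Day 16, all 9 hepatic markers fell in both passaged treatments, from a sum of 759 to 992 TMM-scaled FPKM in static cells to between 16.1 and 22.7 in passaged cells. AHSG was at 0 in both P-DF libraries, and APOA2 and FGB were at 0 in both P-IWP2 libraries. Of the 8 fibroblast markers, 7 fell in P-DF and 8 in P-IWP2 (1423 to 1566 in static cells, 61.1 to 92.0 in passaged cells), and all 5 epicardial markers fell in both (49.5 to 70.5 against 0.092 to 0.177). Of the 6 endothelial markers, 1 fell in each (46.8 to 50.7 against 12.4 to 17.0). Of the 16 cardiomyocyte markers, 7 rose and 1 fell in P-DF and 6 rose and 1 fell in P-IWP2, and their sum was 5469 to 9423 in static and 18271 to 26765 in passaged cells. Without the divergent library, 14 and 15 cardiomyocyte markers rose, and 6 and 5 of the 6 endothelial markers fell. No cardiomyocyte marker was at 0 in any library. The part of these cell types in the levels of the respiratory chain subunits was not tested.

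The 4 complexes had medians close to each other. The median log2 fold change on Day 16 was 0.57 for complex I, 0.68 for complex III, 0.69 for complex IV and 0.63 for complex V in P-DF. In P-IWP2 the medians were 0.71, 0.83, 0.75 and 0.73 in the same order. Complex III had the highest share of members that rose in P-IWP2, 8 of 9, against 19 of 36 in complex I, 4 of 15 in complex IV and 4 of 18 in complex V. In P-DF, 3 of 9, 6 of 36, 2 of 15 and 4 of 18 members rose. With the divergent library left out, 9 of 9, 35 of 36, 14 of 15 and 17 of 18 rose in P-IWP2. A difference between the complexes was not tested.

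**Figure D3:**
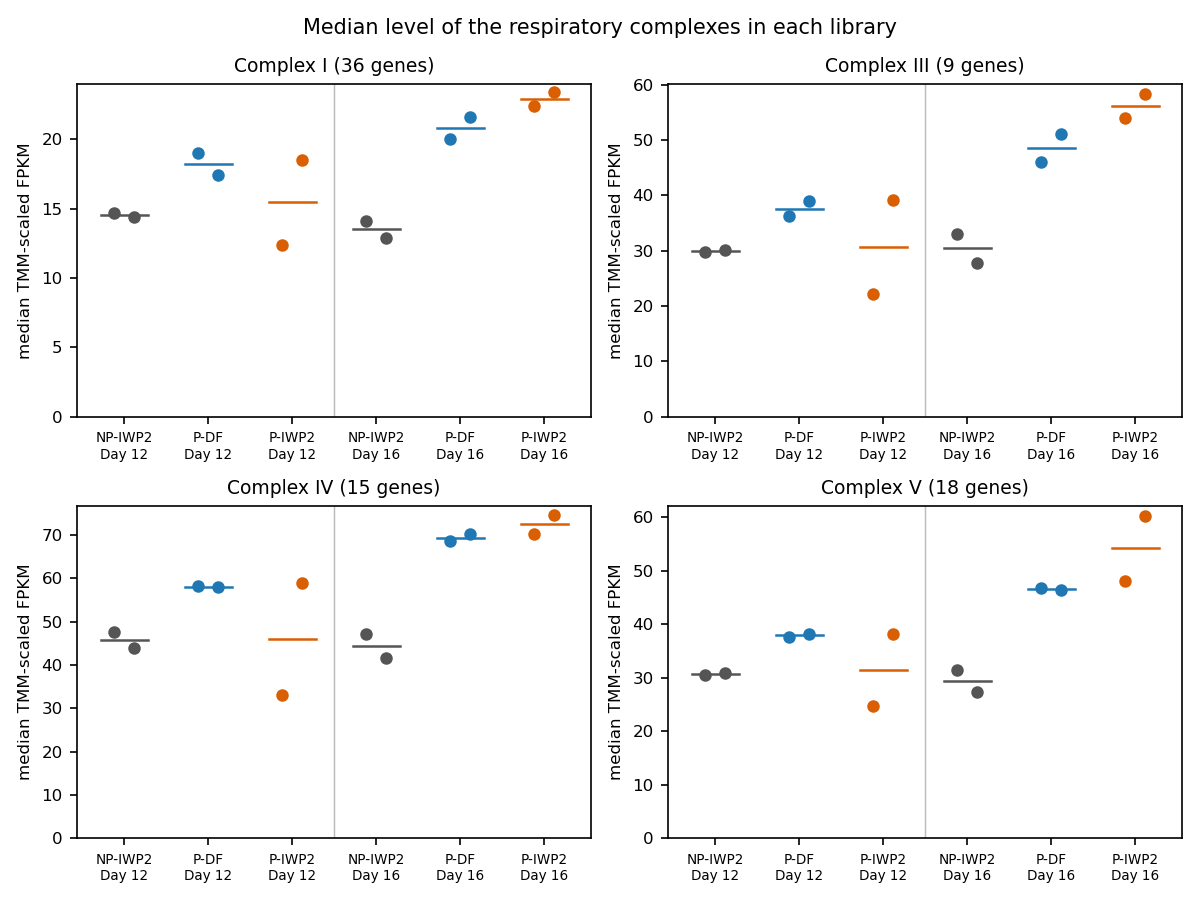
Median TMM-scaled FPKM of the tested protein-coding members of each complex (vertical axes, from 0) in the 6 groups (horizontal axis). Points are libraries and lines are means of 2 libraries. In each complex the 4 passaged Day 16 libraries lie above both static Day 16 libraries, and the lowest Day 12 point is P-IWP2 replicate 5.

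Complex I takes electrons from NADH through a chain of core subunits that hold flavin and iron-sulfur clusters, around which many supernumerary subunits are arranged. Mean levels of its members ranged from 1.58 (NDUFA7) to 223 TMM-scaled FPKM (NDUFS5). NDUFS1, the largest iron-sulfur core subunit, was at 16.6 and 14.1 in the static Day 16 libraries, 24.5 and 23.9 in P-DF, and 25.2 and 27.9 in P-IWP2. Its log2 fold change was 0.66 in P-DF (SE 0.216, edgeR adjusted p = 0.0708) and 0.79 in P-IWP2 (SE 0.217, edgeR adjusted p = 0.0360), so it passed the test only in P-IWP2, and the groups did not overlap. Of the 7 core subunits encoded in the nucleus, 2 rose in P-DF and 4 in P-IWP2. NDUFS7, which holds the last iron-sulfur cluster of the chain, rose in both (0.65 and 0.81), and NDUFV1, which binds NADH and flavin, rose in P-IWP2 (0.77, edgeR adjusted p = 0.0213).

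Among the 29 supernumerary subunits of complex I, 4 rose in P-DF and 15 in P-IWP2. NDUFA1, a small membrane subunit, was at 138 and 101 in static Day 16 cells, 201 and 224 in P-DF, and 212 and 271 in P-IWP2. It rose by 0.83 (SE 0.222, edgeR adjusted p = 0.0359) and 1.01 (SE 0.222, edgeR adjusted p = 0.0160) on the log2 scale. NDUFA12 rose in P-IWP2 (log2 fold change 1.03, edgeR adjusted p = 0.0166), with 6.63 and 5.30 in static and 10.6 and 13.7 in P-IWP2 libraries. NDUFS5, the member of complex I with the highest mean level, was at 207 and 184 in static cells, 295 and 305 in P-DF, and 308 and 395 in P-IWP2, and passed the test in P-IWP2 only (0.85, edgeR adjusted p = 0.04). NDUFA7, at 1.03 and 1.05 in static cells and 1.42 to 2.53 in passaged cells, had the lowest counted level of complex I. Whether its reads were lost to overlapping genes in the counting was not checked. NDUFA7 did not pass the test in either treatment, nor without the divergent library.

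Complex III moves electrons from coenzyme Q to cytochrome c. Its catalytic nuclear-encoded subunit in the rule, the Rieske iron-sulfur protein UQCRFS1, was at 33.0 and 27.8 in static Day 16 libraries, 46.1 and 51.1 in P-DF, and 54.0 and 58.2 in P-IWP2. It rose in P-IWP2 (log2 fold change 0.88, SE 0.223, edgeR adjusted p = 0.0269) and had a value of 0.68 in P-DF (edgeR adjusted p = 0.0698). UQCRC1, a structural core protein, was at 59.8 and 47.8 in static cells, 84.5 and 87.9 in P-DF and 97.9 and 104 in P-IWP2. It did not pass the test in either treatment (0.68 and 0.91, edgeR adjusted p = 0.128 and 0.0535) with all libraries and passed in both without the divergent library (edgeR adjusted p = 0.000487 and 4.59e-05), and the groups did not overlap. UQCRC2, its partner core protein, rose in both (0.80 and 0.78).

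UQCRQ, a small subunit of complex III, had the largest rise of that complex in P-IWP2, and the largest among all members that rose there other than COX7A1. It was at 17.8 and 16.0 in static Day 16 cells, 27.8 and 30.6 in P-DF, and 37.3 and 46.8 in P-IWP2. The log2 fold change was 0.79 in P-DF (SE 0.204, edgeR adjusted p = 0.0316) and 1.31 in P-IWP2 (SE 0.205, edgeR adjusted p = 0.00401). Without the divergent library, it was also the one member that rose in P-IWP2 against P-DF on Day 16 (0.53, SE 0.122, edgeR adjusted p = 0.0401, where 1.64% of all genes rose and 0.843% fell). UQCR10 and UQCRH, which bind near cytochrome c1, rose in P-IWP2 by 0.98 (edgeR adjusted p = 0.0190) and 0.78 (edgeR adjusted p = 0.0217). UQCRH had the highest mean level of complex III, 101 TMM-scaled FPKM.

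Complex IV, cytochrome c oxidase, has its catalytic core encoded in the mitochondrial genome, and the nuclear subunits surround that core and come in tissue isoforms. Of the ubiquitous subunits, COX7B was at 31.2 and 24.3 in static Day 16 cells, 49.7 and 54.9 in P-DF, and 48.4 and 59.5 in P-IWP2. It rose by 0.91 (SE 0.240, edgeR adjusted p = 0.0332) and 0.96 (SE 0.240, edgeR adjusted p = 0.0264). COX7C also rose in both (0.68 and 0.67), and COX6B1 rose in P-IWP2 (0.87, edgeR adjusted p = 0.0304). COX8A, the member of complex IV with the highest mean level (195 TMM-scaled FPKM), COX4I1 and NDUFA4 had values of 0.65 to 0.75 in both treatments and did not pass the test. NDUFA4 is now regarded as a subunit of complex IV and was counted there.

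Muscle isoforms of complex IV were low next to the ubiquitous ones. COX6A2 (ENSG00000156885, chr16:31427731-31428360, hg38), the isoform of heart and skeletal muscle, was at 13.1 and 10.8 TMM-scaled FPKM in NP-IWP2, 10 and 13.5 in P-DF, and 0.334 (replicate 5) and 9.08 in P-IWP2 on Day 12. On Day 16 it was at 6.51 and 4.07 in NP-IWP2, 18.3 and 22.3 in P-DF, and 20.5 and 9.5 in P-IWP2. The passaged libraries therefore lay above both static libraries on Day 16 and did not on Day 12. With all 12 libraries no comparison of COX6A2 passed the test (Day 16 log2 fold change 1.94, SE 0.880, edgeR adjusted p = 0.166 in P-DF, and 1.5, SE 0.877, edgeR adjusted p = 0.262 in P-IWP2). With the divergent library left out, in which COX6A2 had 3 reads, it rose in P-DF (1.93, SE 0.344, edgeR adjusted p = 0.00077) and in P-IWP2 (1.5, SE 0.349, edgeR adjusted p = 0.00471). In that model it also fell by 1.17 from Day 12 to Day 16 in NP-IWP2 (edgeR adjusted p = 0.0365), and the difference of the P-DF effect between the days was 1.96 (SE 0.474, edgeR adjusted p = 0.0239).

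COX6A1, the isoform found in most tissues, was far above COX6A2 per length in every library. Its level was 77 and 59.6 in static Day 16 cells, 94.8 and 99.1 in P-DF, and 96.8 and 132 in P-IWP2, and the difference passed the test in neither treatment with all libraries (0.50 and 0.74, edgeR adjusted p = 0.219 and 0.0806). On the deposited FPKM, COX6A2 made up 7.80% and 6.39% of the pair in static Day 16 cells, 16.2% and 18.4% in P-DF, and 17.5% and 6.71% in P-IWP2. On Day 12 it made up 14.1% and 12.4% in NP-IWP2, 9.79% and 13.5% in P-DF, and 0.648% (replicate 5) and 8.68% in P-IWP2. The second P-IWP2 library of Day 16 thus kept a share like that of static cells. Over both days the log2 ratio of COX6A2 to COX6A1 differed by -0.14 between passaged and static libraries, with a difference of -1.34 on Day 12 and 1.06 on Day 16 (two-sided exact permutation test within days, p = 0.92, adjusted p = 0.92 over 8 tests). The smallest p that this design allows is 0.00444. Without the divergent library the difference was 0.34, and the exact permutation p was 0.38.

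**Figure D4:**
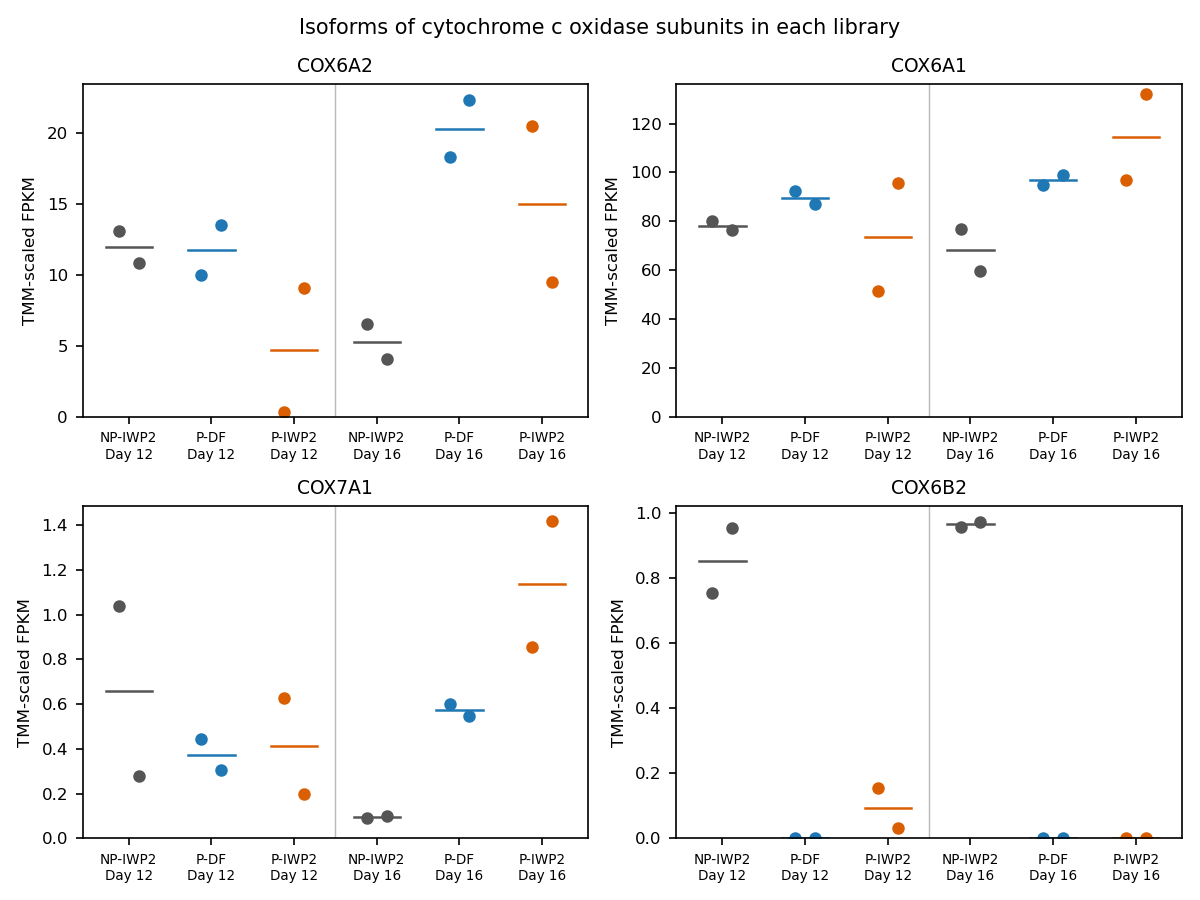
TMM-scaled FPKM of COX6A2, COX6A1, COX7A1 and COX6B2 (vertical axes, each from 0 with its own range) in the 6 groups (horizontal axis). Points are libraries and lines are means of 2 libraries. COX6A2 separates passaged from static libraries on Day 16 but not on Day 12, and COX6B2 is at 0 in all 4 passaged Day 16 libraries.

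COX7A1 (ENSG00000161281, chr19:36150922-36152449), the muscle isoform of another complex IV subunit, was near the detection limit throughout, with 1 to 13 reads per library. On Day 16 it had 1 and 1 reads in NP-IWP2, 5 and 5 in P-DF, and 8 and 13 in P-IWP2, which are 0.0906 to 1.42 TMM-scaled FPKM. It passed the test in P-IWP2 (log2 fold change 3.42, SE 0.903, edgeR adjusted p = 0.0315) and not in P-DF (2.45, SE 0.983, edgeR adjusted p = 0.123), and fitted fold changes of so few reads depend on the prior count. On Day 12, with 12 and 3 reads in NP-IWP2 and 2 to 7 in the passaged libraries, the groups overlapped. Its ubiquitous counterpart COX7A2 was at 30.3 to 61.5 TMM-scaled FPKM on Day 16, so COX7A1 made up at most 2.27% of the pair there. The log2 ratio of the pair differed by 0.57 between passaged and static libraries (two-sided exact permutation test within days, p = 0.369, adjusted p = 0.877) and by -0.20 between Day 16 and Day 12 (p = 0.657, exact permutation within treatments).

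COX6B2 (ENSG00000160471, chr19:55349306-55354719), described in testis, was the one member that fell on Day 16. It had 55 and 65 reads in NP-IWP2 on Day 12 and 67 and 62 on Day 16, which is 0.753 to 0.972 TMM-scaled FPKM. No read was counted in P-DF on either day or in P-IWP2 on Day 16, and 11 (replicate 5) and 2 reads were counted in P-IWP2 on Day 12. Set against a floor of 3 counts over the group, COX6B2 was at least 36.0-fold lower in P-DF on Day 12, at least 41.7-fold lower in P-DF on Day 16 and at least 45.6-fold lower in P-IWP2 on Day 16 (edgeR adjusted p = 0.0059 and 0.00537 on Day 16). Its counterpart COX6B1 was at 70.0 to 149 TMM-scaled FPKM on Day 16, so COX6B2 was a minor transcript even in static cells. The hepatic, fibroblast and epicardial markers given above were also lower in passaged cells, and their part in the level of COX6B2 was not tested.

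The other tissue-restricted isoforms were close to absent. COX4I2 had 1 read in 1 of the 12 libraries, COX7B2 had none, COX8C had 0 to 9 reads and NDUFA4L2 had 0 to 10, with the 10 reads in the divergent library. Among the 8 tests of isoform ratios, the lowest p was that of COX4I2 to COX4I1 between passaged and static libraries (-0.48, two-sided exact permutation test, p = 0.0267, adjusted p = 0.213). With COX4I2 at 0 reads in 11 libraries, that ratio holds little besides the level of COX4I1.

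Complex V makes ATP in its F1 head, which a rotating central stalk and a ring of c subunits drive and a peripheral stalk holds in place. The highest level of any member was that of ATP5F1B, the catalytic beta subunit of F1, at 479 and 390 TMM-scaled FPKM in static Day 16 cells, 644 and 653 in P-DF, and 644 and 707 in P-IWP2. The difference did not pass the test with all libraries (0.58 and 0.64, edgeR adjusted p = 0.192 and 0.146), and it did without the divergent library (edgeR adjusted p = 0.00271 and 0.00127). ATP5F1C, the gamma subunit of the central stalk, rose from 85.4 and 63.6 to 125 and 152 in P-DF and to 133 and 145 in P-IWP2 (0.90 in both, edgeR adjusted p = 0.0481 and 0.0449). ATP5PB, the main subunit of the peripheral stalk, rose by 0.91 and 0.97 (edgeR adjusted p = 0.0344 and 0.0256), and ATP5MF, a small membrane subunit, by 0.73 and 1.04 (edgeR adjusted p = 0.0481 and 0.0125). Each of the 3 lay above both static libraries in all 4 passaged libraries.

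Subunit c, which forms the rotor ring, is made from 3 genes whose mature proteins are identical. On Day 16 ATP5MC1, ATP5MC2 and ATP5MC3 had log2 fold changes of 0.69, 0.38 and 0.68 in P-DF and 0.85, 0.28 and 0.77 in P-IWP2, and none passed the test with all libraries. The sum of the 3 genes was 112 and 91.9 TMM-scaled FPKM in static Day 16 libraries and 151 to 167 in passaged ones. ATP5MC3 made up 51.4% to 56.9% of that sum in every library. ATP5MC2 made up 28.4% and 30.1% in static and 21.1% to 26.0% in passaged cells on Day 16, and without the divergent library it was the one subunit c gene that did not pass the test in P-IWP2.

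Sequence upstream of the members is shown for genes that carry the contrasts above, namely the muscle isoform COX6A2, its ubiquitous counterpart COX6A1, UQCRQ with the largest rise of complex III in P-IWP2, and UQCRC1 and NDUFS1 as structural and catalytic core subunits of complexes III and I. The sequences are the 250 bases before the RefSeq gene start (GRCh38.p14), written 5′ to 3′ on the strand of the gene, with motif matches in capitals. COX6A2 (chr16:31428361-31428610, minus strand) holds a TATAAA match 201 bases and a match to a loose MEF2 pattern (CTAAGAATAG) 83 bases before the start. COX6A1 (chr12:120437863-120438112, plus strand) and UQCRQ (chr5:132866392-132866641, plus strand) hold an ETS match 16 and 54 bases before the start. UQCRC1 (chr3:48609647-48609896, minus strand) holds an NRF1 match (GCGCCTGCGC) 47 bases before the start, and NDUFS1 (chr2:206159445-206159694, minus strand) an ETS match 157 bases before it.
COX6A2: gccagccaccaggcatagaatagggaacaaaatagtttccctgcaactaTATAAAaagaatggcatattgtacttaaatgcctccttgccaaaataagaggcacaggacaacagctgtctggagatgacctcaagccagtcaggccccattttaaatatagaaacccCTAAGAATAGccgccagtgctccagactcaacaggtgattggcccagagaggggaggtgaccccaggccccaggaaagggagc
COX6A1: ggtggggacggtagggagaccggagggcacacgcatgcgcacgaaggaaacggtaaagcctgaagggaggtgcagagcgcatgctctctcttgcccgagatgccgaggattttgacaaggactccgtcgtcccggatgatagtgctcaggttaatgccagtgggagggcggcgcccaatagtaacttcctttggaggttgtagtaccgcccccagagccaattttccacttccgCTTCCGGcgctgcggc
UQCRQ: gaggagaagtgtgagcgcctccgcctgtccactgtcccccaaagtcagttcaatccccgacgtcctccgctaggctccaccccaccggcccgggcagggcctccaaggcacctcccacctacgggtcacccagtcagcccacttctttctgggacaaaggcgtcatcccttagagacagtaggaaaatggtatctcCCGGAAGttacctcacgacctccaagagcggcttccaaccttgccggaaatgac
UQCRC1: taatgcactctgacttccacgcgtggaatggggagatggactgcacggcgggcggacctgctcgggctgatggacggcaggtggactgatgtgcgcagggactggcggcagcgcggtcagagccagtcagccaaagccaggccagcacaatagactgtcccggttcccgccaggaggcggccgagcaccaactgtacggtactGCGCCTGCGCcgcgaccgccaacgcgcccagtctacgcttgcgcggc
NDUFS1: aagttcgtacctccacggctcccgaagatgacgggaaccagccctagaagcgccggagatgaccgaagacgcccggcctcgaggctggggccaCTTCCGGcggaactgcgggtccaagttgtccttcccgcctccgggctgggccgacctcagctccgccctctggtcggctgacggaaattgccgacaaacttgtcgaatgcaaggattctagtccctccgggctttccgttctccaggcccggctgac

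For shares over all genes, 6 motifs were searched on both strands in whole RefSeq promoters, from 250 bases before to 50 bases after the start, a wider window than the 250 bases shown. Promoters were found for 66 of the 83 protein-coding members. Their median GC content was 60.6%, against 58.0% over all 27305 promoters, and its part in the shares below was not tested. The ETS and YY1 motifs can overlap, since one ends and the other starts with AAG. The site of NRF1, a regulator of nuclear genes for mitochondria, was in 15 of the 66 (22.7%, against 6.28% of all 27305 promoters). CCGGAAG, bound by ETS factors, was in 18 (27.3% against 10.7%), and AAGATGGCG, bound by YY1, in 7 (10.6% against 1.85%). TNAAGGTCA, bound by oestrogen-related receptors, was in 1 (1.52% against 0.963%), and TATAAA in 7 (10.6% against 12.0%). The MEF2 pattern searched was loose, with any base allowed at its middle positions. It was in 1 of the 66 promoters, that of COX6A2 (1.52% against 2.83%). Such a match, which in COX6A2 includes a G in the middle, does not show a site of the MEF2 factors of muscle. COX6A2 also had a lower GC content, 49.2% of the 250 bases shown, than COX6A1 (60%), UQCRQ (60.4%), NDUFS1 (64.4%) and UQCRC1 (67.2%). A match describes these letters only and is not evidence of binding.

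On Day 12 the picture depended on the divergent library. With all 12 libraries, no member rose and COX6B2 fell in P-DF, where 0.697% of all genes rose and 3.32% fell. No member was called in P-IWP2, where 0.328% rose and 1.33% fell (edgeR's quasi-likelihood test in both). An unadjusted p under 0.05 was reached by 10 and 2 members in P-DF and P-IWP2, and by 4229 and 2243 of the 19505 genes. DESeq2 called 0 members that rose and 1 that fell in each. The median difference stood at 0.30 in P-DF and 0.01 in P-IWP2. With the divergent library left out, 30 members rose in P-DF (8.25% of all genes) and 15 in P-IWP2 (5.45%), and COX6B2 fell in both (13.6% and 9.57% of all genes fell). The median was then 0.29 in P-DF and 0.37 in P-IWP2, the latter from a single library that was assumed to vary like the other groups. Without P-IWP2 replicate 6 instead, no member rose in P-IWP2 and 31 fell, where 5.56% of all genes rose and 8.72% fell. Leaving out either library removes the distance between the pair from the shared spread, and 30 members rose in P-DF in either case.

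By level, NDUFC1, a small membrane subunit of complex I, was the one member for which all 4 passaged Day 12 libraries lay above both static ones (12.4 and 12.8 in NP-IWP2, 15.9 and 16.8 in P-DF, 14.2 and 17.0 in P-IWP2), where 10.1% of all genes did so. Without the divergent library, 67 of the 78 members lay higher without overlap (27.1% of all genes, and 30.4% lower). Members that rose in both treatments then included NDUFB1, NDUFB2 and NDUFS6 of complex I, COX5A, COX7B and COX7C of complex IV, and ATP5MC1 and ATP5MC3 of complex V. The 3 passaged libraries other than replicate 5 had hepatic markers at 5.65 to 8.01, fibroblast markers at 154 to 175 and cardiomyocyte markers at 8254 to 9063 TMM-scaled FPKM in sum. The part of these cell types was not tested.

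**Figure D5:**
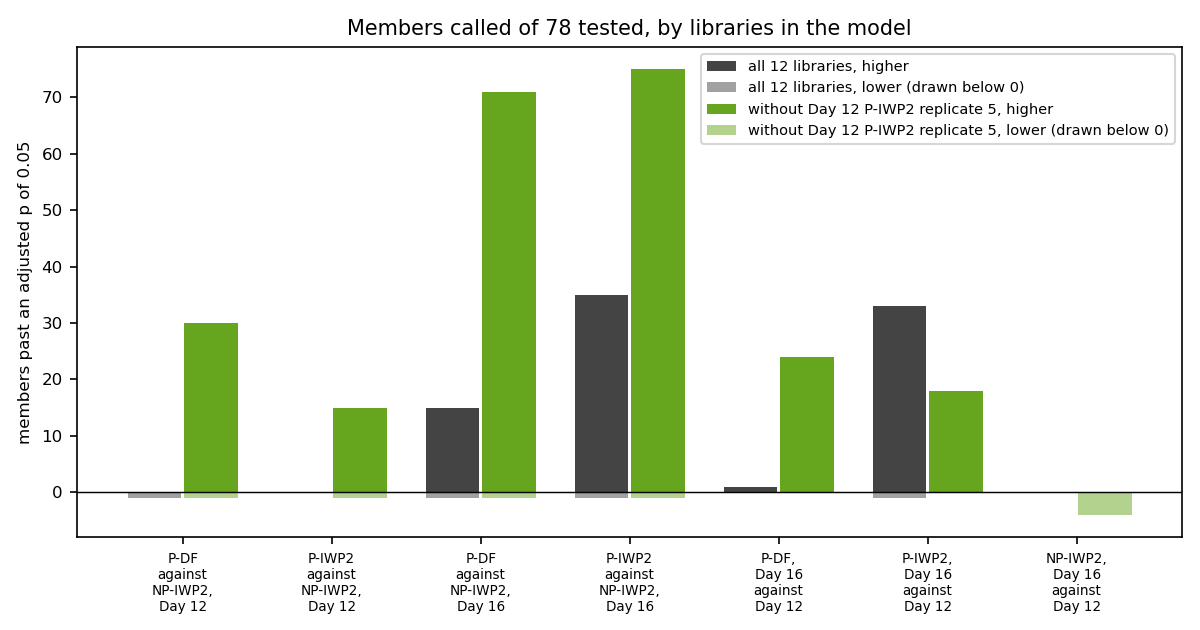
Number of the 78 tested protein-coding members past an adjusted p of 0.05 (vertical axis, members that fell drawn below 0) in 7 comparisons (horizontal axis), with all 12 libraries (grey) and without the divergent library (green). Without that library the calls against NP-IWP2 rose to 30, 15, 71 and 75, and those over time in P-IWP2 fell from 33 to 18.

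Between Day 12 and Day 16, the median change of the members differed between treatments and with scaling. The difference between treatments was tested as an interaction, given below. In NP-IWP2 the median change was -0.05 and no member was called, where 0.877% of all genes rose and 1.10% fell (edgeR, 2 members and 3836 of the 19505 genes at an unadjusted p under 0.05, and 0 members called by DESeq2). In P-DF the median was 0.24 and NDUFB4, a supernumerary subunit of complex I, rose (0.60, SE 0.170, edgeR adjusted p = 0.0476), where 6.79% of all genes rose and 6.81% fell. With total counts and with limma on the deposited FPKM, the median in P-DF was -0.02 instead. The members' share of counts in P-DF was 1.09% in both Day 12 and 1.02% and 1.07% in the Day 16 libraries. In NP-IWP2 the median with total counts was -0.17. In P-IWP2 the median was 0.64, and 33 members rose and COX6B2 fell, where 12.9% of all genes rose and 14.1% fell. With total counts the median in P-IWP2 was 0.25, and 9 members rose and 1 fell (5.46% and 32.4% of all genes). The members' share of counts in P-IWP2 was 0.736% (divergent library) and 1.12% on Day 12, and 1.07% and 1.09% on Day 16. By that share, both Day 16 libraries lay below the other Day 12 library. The last comparison contains the divergent library, and without it 18 members rose (12.4% of all genes) with a median of 0.30. In P-DF 24 members then rose (15.1%), and in NP-IWP2 COX6A2, NDUFA3, NDUFB8 and NDUFV1 fell (9.23% of all genes rose and 7.91% fell).

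UQCRQ showed the largest rise over time among the called members. It was at 11.5 and 18.4 TMM-scaled FPKM in P-IWP2 on Day 12 and at 37.3 and 46.8 on Day 16 (log2 fold change 1.49, SE 0.206, edgeR adjusted p = 0.00224). With the divergent library left out the change was 1.2 (SE 0.158, edgeR adjusted p = 0.000175). NDUFS5 rose by 1.16 (SE 0.240, edgeR adjusted p = 0.00989), from 116 and 198 to 308 and 395. Of the 9 members of complex III, 8 rose in P-IWP2, against 13 of 36 in complex I, 5 of 15 in complex IV and 7 of 18 in complex V. These counts rest on the divergent library, and without it 4 of 9, 9 of 36, 1 of 15 and 4 of 18 rose.

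A change in the passaging effect from Day 12 to Day 16 was tested as an interaction. With all 12 libraries no member passed the test in P-DF or P-IWP2, where 0.174% and 0.774% of all genes had a larger effect on Day 16 and 0.308% and 1.06% a smaller one. At an unadjusted p under 0.05 by edgeR were 3 and 42 members, and 2425 and 4080 of the 19505 genes. The median interaction stood at 0.31 in P-DF and 0.74 in P-IWP2, and DESeq2 called 0 and 6 members. Without the divergent library, ATP5F1C, COX6A2 and NDUFB5 passed in P-DF (3.57% of all genes had a larger and 4.05% a smaller effect on Day 16) and 4 members, among them COX7A1, NDUFV1 and UQCRQ, in P-IWP2 (3.86% and 4.03%), with a median of 0.31 and 0.40. For the remaining members, neither of these edgeR models showed that the difference from NP-IWP2 changed between the days.

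Both passaged treatments were compared on Day 16 to see whether IWP2 added to passaging. The median difference of P-IWP2 from P-DF was 0.10 on the log2 scale, with single members between -0.44 and 0.97, and no member was called (0.0% of all genes in either direction, 1 member and 1567 of the 19505 genes at an unadjusted p under 0.05 by edgeR, and 0 members called by DESeq2). By complex, the median was 0.14 for complex I, 0.21 for complex III, 0.05 for complex IV and 0.07 for complex V. The second P-IWP2 library was the highest of all 12 libraries for 57 of the 78 members, and without it the median difference of P-IWP2 from NP-IWP2 was 0.65 and 2 members rose (1.7% of all genes). A difference between both treatments did not pass the test for the members, other than UQCRQ in the model without the divergent library.

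The other parts of the chain were measured by lists, on Day 16, when 5.39% of all genes rose in P-DF and 7.15% in P-IWP2. Complex II, which the rule leaves out, has 4 subunits, and SDHB, its iron-sulfur subunit, rose in P-IWP2 on Day 16 (0.79, SE 0.223, edgeR adjusted p = 0.0392), with 19.5 and 18.6 in static cells, 31.0 and 28.3 in P-DF and 28.9 and 37.3 in P-IWP2. SDHA, the flavin subunit, was at 7.87 and 6.98 in static, 15.5 and 14.2 in P-DF and 14.1 and 13.6 in P-IWP2 libraries and did not pass (1.00 and 0.90, edgeR adjusted p = 0.0641 and 0.0814). The median of the 4 was 0.64 in P-DF, where 0 of 4 rose, and 0.71 in P-IWP2, where 1 of 4 rose, and all 4 rose in both without the divergent library. Of 7 further subunits and carriers, 1 rose in P-DF and 2 in P-IWP2 (median 0.68 and 0.71). NDUFAB1, a subunit of complex I that also serves as acyl carrier protein, rose in P-IWP2 (0.89, edgeR adjusted p = 0.0355), and SLC25A3, the mitochondrial phosphate carrier, rose in both (0.68 and 0.70). CYC1, the cytochrome c1 subunit of complex III, and CYCS, cytochrome c, had values of 0.64 to 0.78 that did not pass.

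The 13 protein-coding genes of the mitochondrial genome were also higher in passaged cells on Day 16. They took 8.68% and 8.06% of all counts in static Day 16 libraries and 11.1% to 12.6% in passaged ones, which did not overlap. Their median log2 fold change stood at 0.74 in P-DF and 0.81 in P-IWP2, between 0.56 and 0.96 for single genes, and 0 of 13 and 1 of 13 passed the test with all libraries. MT-ATP8 of complex V was the gene that passed (0.91, edgeR adjusted p = 0.0406). All 13 passed in both without the divergent library. In that library they took 5.96% of counts, the lowest of the 12.

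Assembly factors and general markers of mitochondrial content had lower medians than the subunits. Of 43 assembly factors, 4 rose in P-DF (median 0.43) and 9 in P-IWP2 (median 0.47) on Day 16, where 5.39% and 7.15% of all genes rose. Among them was ATPAF1, a chaperone of the F1 head (0.72 and 1.03, edgeR adjusted p = 0.0373 and 0.00904). Of 12 genes of mitochondrial content, none passed in either treatment with all libraries, and the medians were 0.28 and 0.29. With the divergent library left out, 23 and 26 assembly factors and 6 and 5 content genes rose. The shares of all genes that rose in that model are given above with the calls of the members. The difference between these lists and the subunits was not tested. The 8 cell cycle genes, of which none was called on Day 16 in either treatment, summed to 76.9 and 87.4 in static, 68.5 and 83.7 in P-DF, and 71.4 and 140 TMM-scaled FPKM in P-IWP2, the highest being the library in which most members were highest.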

How the data were processed

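RNA was sequenced from 12 libraries of H1 cells. The authors deposited a table of raw counts per gene and FPKM values. Per the submitters' processing notes, cutadapt 1.9.1, HISAT2 2.0.1, HTSeq 0.6.1, DESeq2 and hg38 were used. The strand setting is not given in the sources used here. Library totals were 14885589 to 19176239, at which 3 counts equal 0.156 to 0.202 CPM.

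Groups came from the labels. Genes were filtered with filterByExpr, and edgeR 4.0.16 (R 4.3.3, TMM scaling, quasi-likelihood test) was fitted to all 6 groups, with Benjamini-Hochberg adjustment over 19505 genes and a threshold of 0.05. The same steps were also run on simulated counts that held no divergent library, so that run does not speak for the calls made here. Levels are counts per exon length and TMM library size. Ratios of isoforms used log2(FPKM + 0.1) and exact permutation tests. Alternatives were total-count scaling, no filter, only the groups compared, a replicate block, DESeq2 1.42.0, limma 3.58.1 on log2 FPKM of genes with a mean of at least 1, other pseudocounts and each library left out.

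The members and lists were chosen with earlier results of these data known. Genes named were 4 given for the module (NDUFS1, UQCRC1, COX6A2 and COX7A1), isoform pairs and subunit c genes, the 3 largest rises and falls called per complex on Day 16, the highest member of each complex, and members called against their complex. From the lists, complex II, CYC1, NDUFAB1 and CYCS were named. NDUFS7, NDUFV1, NDUFB4, NDUFC1, UQCRC2, COX7C, NDUFA7, SLC25A3, ATPAF1, MT-ATP8 and other genes beyond these were named after their values were seen. Promoter sequences are from RefSeq (GRCh38.p14). The values of 1 member are not reported here, though it is included in the counts and medians.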

Additional observations from a re-analysis of the deposited data

How the results depend on the processing

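The median difference of the members on Day 16 stayed above 0 under every alternative run, while the number past the threshold did not hold. The counts below are members that rose or fell. For P-DF against NP-IWP2 on Day 16 they were 7 with total counts, 58 without a filter, 73 with only the groups compared, 29 with DESeq2, and 6 and 7 with limma at pseudocounts of 1 and 0.1. Of all genes then tested, 2.86%, 4.32%, 17.3%, 6.79%, 3.74% and 3.67% rose in the same order. The shares that fell were 14.7%, 7.26%, 22.8%, 11.6%, 13.2% and 14.2%. For P-IWP2 on Day 16 the members called were 68 without a filter, 69 with only the groups compared, and 23 with limma at either pseudocount. Of all genes, 5.18%, 12.6%, 4.86% and 4.82% rose (limma at 1 and 0.1 last), and 7.1%, 16.6%, 16.8% and 18.2% fell. On Day 12 the members called were 8, 40 and 0 in P-DF without a filter, with only the groups compared and with limma at either pseudocount. In P-IWP2 2 were called without a filter and 1 with DESeq2. Of all genes, 2.35%, 12.5%, 0.471% and 0.336% rose in P-DF, and 1.5% and 0.948% in P-IWP2. The shares that fell were 5.36%, 17.3%, 2.41% and 1.64% in P-DF, and 2.29% and 2.31% in P-IWP2. Over time the members called were 1 and 9 in NP-IWP2 without a filter and with only the groups compared. In P-DF 7 and 31 were called, where total counts gave 0 and DESeq2 4. Of all genes, 2.82% and 14.8% rose and 2.25% and 13.5% fell in NP-IWP2. In P-DF 4.67%, 18.9%, 3.45% and 8.19% rose, and 4.82%, 18.4%, 13.0% and 7.81% fell, in the order given. In P-IWP2 over time the members called were 10 with total counts, 56 without a filter, 0 with only the groups compared and 11 with limma at either pseudocount. Of all genes, 5.46%, 7.16%, 0.0%, 7.6% and 7.54% rose, and 32.4%, 8.73%, 0.0%, 31.4% and 32.3% fell. The interaction gave 1 and 6 members in P-DF without a filter and with only the groups compared, and 36 and 6 in P-IWP2 without a filter and with DESeq2. Of all genes, 1.14% and 5.78% had a larger effect on Day 16 in P-DF, and 2.63% and 2.91% in P-IWP2. A smaller effect was called for 1.65% and 6.83% in P-DF, and for 4.14% and 4.21% in P-IWP2. The cause was not tested.

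With each library left out in turn, the counts ranged from 1 to 72 and from 2 to 76 on Day 16 (P-DF and P-IWP2), from 0 to 31 in both on Day 12, and from 0 to 1 between P-IWP2 and P-DF. Over time they ranged from 0 to 4 (NP-IWP2), 0 to 24 (P-DF) and 1 to 76 (P-IWP2), and the interactions from 0 to 3 and 0 to 74. The upper ends arose without 1 of the Day 12 P-IWP2 libraries, which by construction removes the spread of that pair. The log2 ratio of COX6A2 to COX6A1 ranged from -0.37 to 0.34 between passaged and static libraries (0.34 without Day 12 P-IWP2 replicate 5, 0.05 without Day 16 P-IWP2 replicate 6) and from 0.02 to 1.21 over time. That of COX7A1 to COX7A2 ranged from 0.19 to 0.94 and from -0.59 to 0.19 (0.05 without Day 12 NP-IWP2 replicate 1, 0.19 without Day 12 P-IWP2 replicate 5). For COX4I2 to COX4I1 over time the value ranged from -0.03 to 0.23, and was -0.03 at a pseudocount of 1, -0.01 without Day 12 P-IWP2 replicate 6 and -0.03 without Day 16 NP-IWP2 replicate 1. For NDUFA4L2 to NDUFA4 the ranges were -0.55 to 0.01 and -0.62 to 0.18, with 0.01 between passaged and static libraries without Day 16 NP-IWP2 replicate 2, and 0.18 over time without Day 12 P-IWP2 replicate 5.

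Deviations of same-numbered libraries of the 2 days correlated over genes at r = 0.0754 (NP-IWP2), -0.00154 (P-DF) and -0.031 (P-IWP2). Each r rests on the 2 libraries of a treatment per day, so it cannot tell whether same-numbered libraries shared a culture. With the replicate block, 3 members were called over time in P-DF, 43 in P-IWP2 and 0 in NP-IWP2, and 0 and 2 in the interactions. Of all genes, 4.92% rose and 4.6% fell in P-DF, 12.1% and 11.8% in P-IWP2, and 0.426% and 0.364% in NP-IWP2. In the interactions, 0.0205% and 0.779% had a larger effect on Day 16, and 0.041% and 1.21% a smaller one. The mean differences of the COX6A2 and COX7A1 ratios over time were 0.62 and -0.20 with and without the block. In alternatives chosen after seeing the data, 72 members on Day 16 and 2 on Day 12 lay higher without overlap on the deposited FPKM (12.0% and 9.62% of all genes). On Day 12 without P-IWP2 replicate 5, 58 did so on the deposited FPKM and 67 on TMM-scaled FPKM (20.3% and 27.1% of all genes).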
